A study of Mus musculus with 13 samples.

Results

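The 8 genes described here encode proteins that shape the surface membrane of muscle cells: the caveolins (Cav1, Cav2 and Cav3), the junctophilins (Jph1 and Jph2), the membrane-bending protein Bin1, the membrane-repair protein Dysf and the lipid phosphatase Mtm1. They were chosen by symbol, and all 8 were found, with 42 transcripts of at least 200 nucleotides, among 29035 genes with a summed level in the isolated cells. All 8 passed the filter on low values, a mean of at least 1 FPKM (the number of fragments divided by transcript length and by the library's total), and so were among the 12095 genes tested in cells and the 11635 tested in ventricles.

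RNA was sequenced from hearts of wild-type FvB mice with the atria removed. Cardiomyocytes, the contracting muscle cells, were represented by 4 libraries: PN30 and PN67 (postnatal days 30 and 67) form the later class, and libraries titled PN1-2 and PN1 form the neonatal class. Cardiac fibroblasts, the cells that make connective tissue, had 4 libraries as well: PN28 and PN60 in the later class, and PN1-3 and PN1-2 in the neonatal class, where a second label gives PN1 for both. Whole ventricles had 1 library each at E17 (embryonic day 17), PN1, PN10, PN28 and PN90. Per the labels, later cardiomyocytes came from Langendorff perfusion, in which enzymes pass through the coronary vessels, and neonatal ones from preplating, which removes the cells that stick to plastic soonest, so stage and isolation method cannot be told apart in cardiomyocytes. Fibroblasts of both classes came from preplating after digestion. The 2 later libraries of a cell type differ in age, so their spread includes age. No label says whether libraries of a class came from separate animals, so each p-value reflects the spread among the libraries at hand, which may be technical. In tests of all cell libraries, these share 1 estimate of the spread per gene. The error of a cardiomyocyte change there includes the spread of the fibroblast libraries, and the reverse. Cells and ventricles were prepared with different library kits, and their levels are not compared.

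In heart muscle, T-tubules are inward folds of the surface membrane that carry the electrical signal to the cell interior, where they meet the calcium store, the sarcoplasmic reticulum, at junctions called dyads. Junctophilins tether the store to the T-tubule. Bin1 curves membrane into tubules, and dysferlin (Dysf) takes part in resealing torn membrane. Caveolins form the small flask-shaped pits called caveolae, with Cav1 and Cav2 known from endothelial cells, fibroblasts and fat cells and Cav3 from muscle. Myotubularin (Mtm1) removes a phosphate from membrane phosphoinositides and is mutated in a human myopathy with abnormal triads, the skeletal muscle counterpart of dyads.

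From neonatal to later stages the 8 genes did not all change in the same direction in cardiomyocytes. Jph1, Jph2, Dysf and Mtm1 were higher in later than in neonatal cardiomyocytes, Bin1 and Cav1 were lower, and Cav2 and Cav3 passed no test. That is 4 of 8 called higher, where 36.9% of all genes tested were, and 2 of 8 called lower, where 30.3% were (limma with Benjamini-Hochberg adjustment, adjusted p below 0.05). In fibroblasts 0 of 8 were called higher by limma, against 19.7% of all genes (1, Mtm1, at an unadjusted p below 0.05), and 4 of 8 were called lower, against 21.4%: Cav1, Cav2, Cav3 and Dysf. The change itself differed between the cell types for 7 of 8 genes, with 6 called more positive in cardiomyocytes, against 32.3% of all genes, and Bin1 called more negative, against 26.6%.

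**Figure D1:**
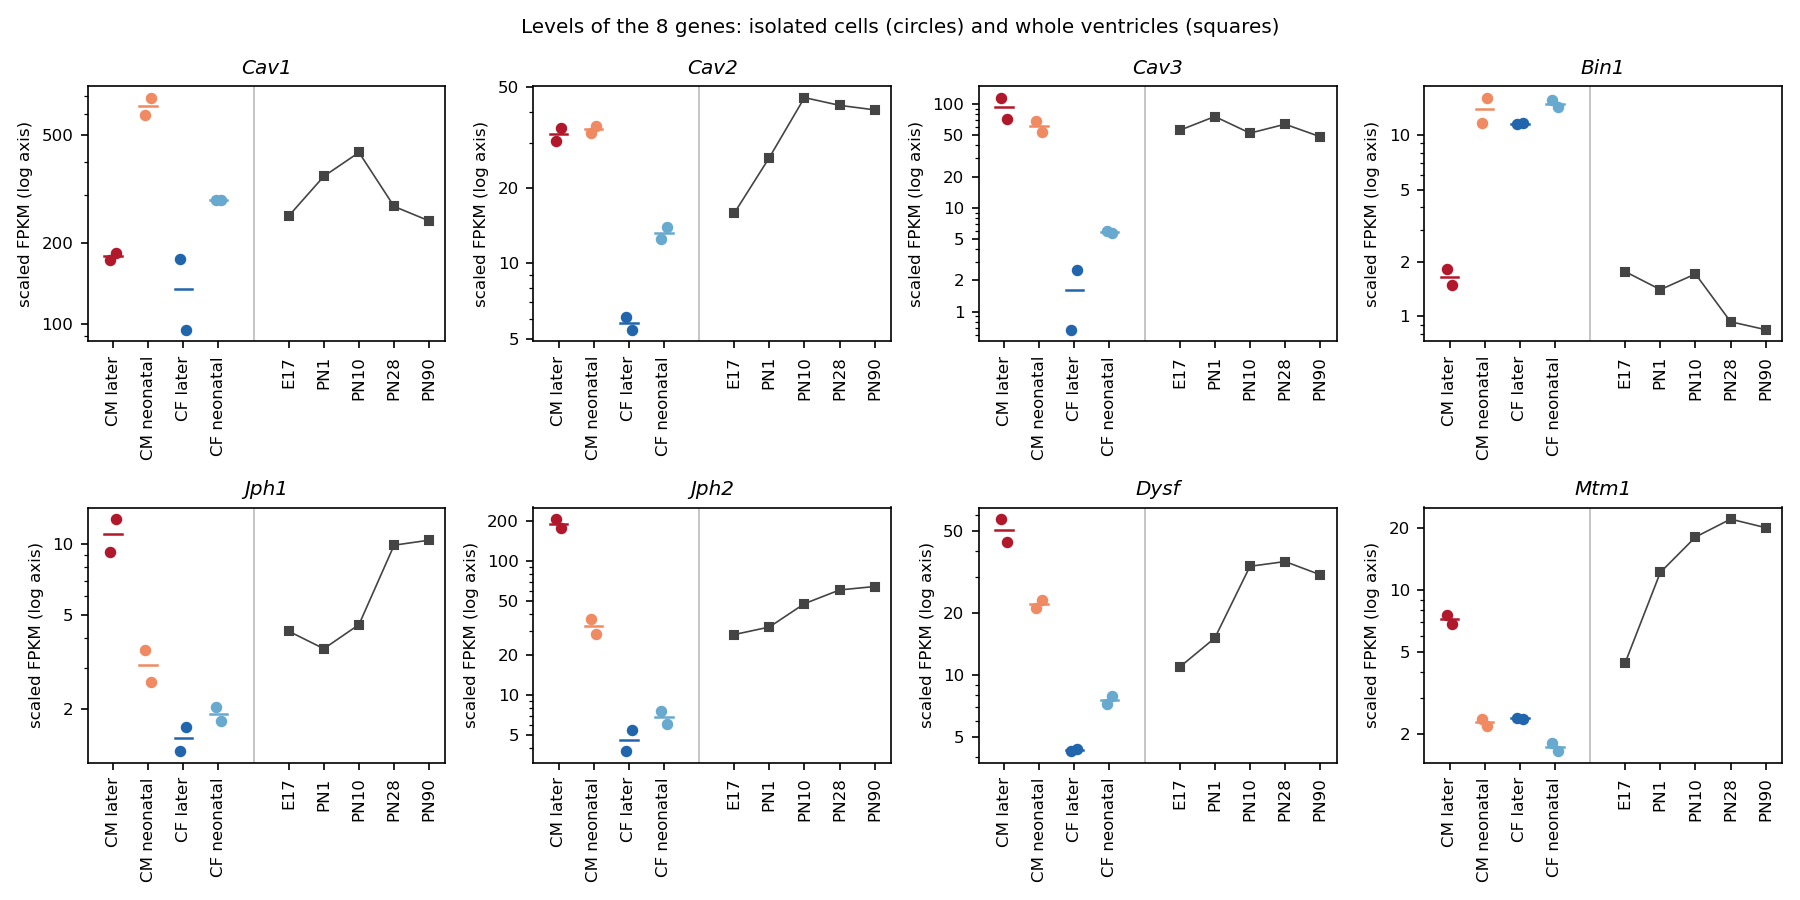
Scaled FPKM (log axis) of each gene in cardiomyocytes (CM) and cardiac fibroblasts (CF), with 1 circle per library and a bar at the mean of the 2 libraries, and in whole ventricles by stage (squares, 1 library each). Jph2 averages 191 FPKM in later cardiomyocytes and 32.7 FPKM in neonatal cardiomyocytes, while Bin1 averages 1.65 and 13.9 FPKM in them.

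The cell libraries carried the markers of their labels, with RNA of other cells in some. The summed level of 9 cardiomyocyte markers was 44720 and 44210 FPKM in the later cardiomyocyte libraries and 13020 and 11800 FPKM in the neonatal ones. It was 26.9 and 35.8 FPKM in later fibroblasts and 1303 and 1154 FPKM in neonatal fibroblasts, where single markers stood at 7.42% to 10.4% (median 9.11%) of their level in neonatal cardiomyocytes. The 8 fibroblast markers stood at a median of 14.6% of the later fibroblast level in later cardiomyocytes (4.12% to 21.9%) and at 9.38% of the neonatal fibroblast level in neonatal cardiomyocytes (6.81% to 27.1%). The 13 endothelial markers summed to 610 and 681 FPKM in later cardiomyocytes, against 1567 and 1800 FPKM in neonatal ones. None of these 3 lists' tested markers was at 0 in a cell library with a successful estimate. Actc1, a cardiac actin, is listed at 0 in later cardiomyocytes, Col3a1, a collagen, in neonatal fibroblasts, and Dcn, a matrix proteoglycan, in later fibroblasts, each with the status HIDATA, a failed estimate at very high depth.

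The junctophilins had the highest rise among the 8 genes in cardiomyocytes. Jph2, the main cardiac junctophilin (chr2:163161978-163223729 in mm9, minus strand), stood at 206 FPKM at PN30 and 175 FPKM at PN67, against 36.7 and 28.8 FPKM in neonatal cardiomyocytes. The 2 classes did not overlap, and the later mean of 191 ± 21.7 FPKM was 5.83 times the neonatal mean of 32.7 ± 5.62 FPKM (SD, n = 2 each). The change was 2.51 ± 0.20 on the log2 scale (SE; adjusted p = 3.59e-05, limma). In fibroblasts Jph2 stood at 3.82 and 5.46 FPKM in the later libraries and 7.60 and 6.04 FPKM in the neonatal ones, a difference of -0.48 ± 0.20 that did not pass (adjusted p = 0.0926). It passed with FPKM as deposited (-0.76, adjusted p = 0.018) and with the mitochondrial chromosome removed (-0.77, adjusted p = 0.0174). Under these scalings the median fibroblast change over all genes was -0.295 and -0.30, against -0.03 in the values used here. Without the PN60 library, replicate 1 of the later fibroblasts, the Jph2 difference was -0.68.

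Jph1, the junctophilin better known from skeletal muscle (chr1:16987545-17087879, minus strand), was far less abundant than Jph2 in every library. Its sole deposited transcript, Jph1-201, is 2192 nucleotides long there and 4809 in the annotation GENCODE M21, so its level rests on a shorter form. Jph1 stood at 9.28 and 12.7 FPKM in later cardiomyocytes (PN30, PN67), against 3.55 and 2.61 FPKM in neonatal ones. The later mean was 3.57 times the neonatal mean, with no overlap, and the log2 change was 1.55 ± 0.19 (adjusted p = 0.000268). Fibroblasts had 1.33 and 1.68 FPKM in the later class and 2.04 and 1.78 FPKM in the neonatal class, a difference of -0.22 ± 0.19 (adjusted p = 0.40).

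Both junctophilins were measured in fibroblast libraries as well. Jph2 in neonatal fibroblasts stood at 20.8% of its level in neonatal cardiomyocytes, above the range of the 9 cardiomyocyte markers (7.42% to 10.4%). In later fibroblasts it stood at 2.43% of the later cardiomyocyte level, where the markers stood at 0.0328% to 0.134%. Jph1 stood at 61.8% and 13.7% in the same 2 settings. Cardiomyocytes minus fibroblasts gave a log2 difference for Jph2 of 5.10 ± 0.20 at the later stage (adjusted p = 3.9e-07) and 2.11 ± 0.20 at the neonatal stage (adjusted p = 0.000194). For Jph1 it was 2.25 ± 0.19 at the later stage (adjusted p = 2e-05) and 0.48 ± 0.19, not called, at the neonatal stage (adjusted p = 0.0818). Of the 8 genes, 6 were called higher and 1 lower in later cardiomyocytes than in later fibroblasts, where 38.6% and 39.4% of all genes were. In the neonatal comparison 5 were called higher and 0 lower (0 lower at an unadjusted p below 0.05 as well), where 21.6% and 19.3% of all genes were.

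**Figure D2:**
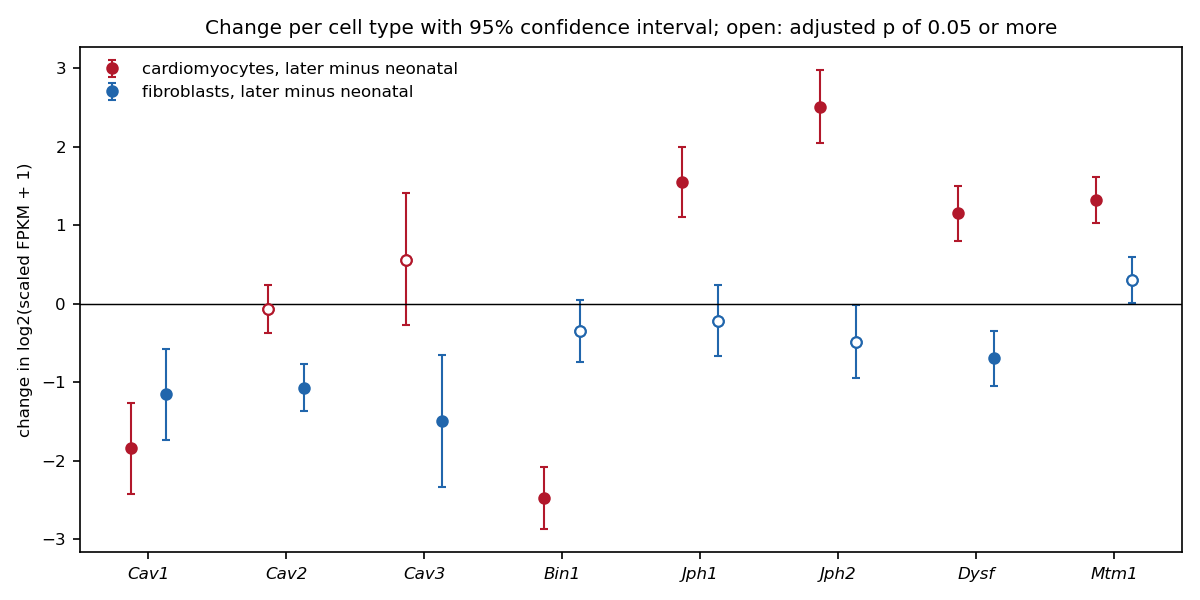
Change of each gene from the neonatal to the later class in cardiomyocytes (red) and fibroblasts (blue), as the difference in log2(scaled FPKM + 1) with the 95% confidence interval from limma. Jph2 is highest in cardiomyocytes at 2.51 and Bin1 lowest at -2.48, and open circles mark changes that did not pass.

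Dysf (chr6:83958584-84161054 in mm9, plus strand) was higher in later cardiomyocytes, and the deposited isoform estimates changed with it. Gene level stood at 57.3 FPKM at PN30 and 44.4 FPKM at PN67, against 21.1 and 23.1 FPKM in neonatal cardiomyocytes, with no overlap. The later mean was 2.30 times the neonatal mean, a log2 change of 1.16 ± 0.15 (adjusted p = 0.000339). It was 0.71 with the mitochondrial chromosome removed and 1.88 with the most abundant transcript, called in both. That transcript, the partial Dysf-210, stood at 30.99 and 24.25 FPKM in later cardiomyocytes, against 6.16 and 7.35 FPKM in neonatal ones. The 6 transcripts that span the gene summed to a mean of 20.26 ± 3.79 FPKM in later cardiomyocytes. In neonatal ones it was 13.86 ± 0.21 FPKM (SD, n = 2 each), and this difference was not tested. Later fibroblasts had 4.28 and 4.38 FPKM, against 7.28 and 7.96 FPKM in neonatal fibroblasts, a log2 change of -0.69 ± 0.15 (adjusted p = 0.00904). That call was lost without the neonatal fibroblast library titled PN1-2, where the change was -0.65 (adjusted p = 0.0638). It was also lost with the most abundant transcript, the partial Dysf-210, in place of the sum (-0.32, adjusted p = 0.161), a setting chosen after seeing the data. The 6 spanning transcripts summed to 2.32 and 2.25 FPKM in later fibroblasts, against 4.48 and 4.49 FPKM in neonatal ones, which was not tested either. Neonatal fibroblasts held 34.5% of the neonatal cardiomyocyte level of Dysf, and later fibroblasts 8.51% of the later cardiomyocyte level.

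The deposited tables hold 11 Dysf transcripts, of which 6 span the gene and differ at the start and at 2 inner exons. Dysf-204, Dysf-205 and Dysf-211 begin at an upstream first exon, and Dysf-201, Dysf-202 and Dysf-203 at a downstream one, which lies 10795 to 10799 bases further in by the deposited positions. In GENCODE M21, 5 of these 6 have the deposited length, while Dysf-205 is 6836 nucleotides long in the deposited tables and 6578 in GENCODE. The coding parts of both first exons are shown because they give the protein its alternative beginnings, with the start codon in capitals (GRCm38, plus strand, GENCODE M21), at chr6:84008915-84009002 for the upstream and chr6:84019518-84019608 for the downstream exon.
Dysf upstream first exon, coding part: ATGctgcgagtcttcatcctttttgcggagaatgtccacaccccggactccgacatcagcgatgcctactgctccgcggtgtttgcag
Dysf downstream first exon, coding part: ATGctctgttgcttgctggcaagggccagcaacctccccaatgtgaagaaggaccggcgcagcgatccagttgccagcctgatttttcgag

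The 2 inner exons tell the isoforms apart further. An exon of 93 nucleotides (31 codons, chr6:84064471-84064563 in GRCm38) is part of Dysf-201 and, in GENCODE, Dysf-205. An exon of 42 nucleotides (14 codons, chr6:84096477-84096518) is part of Dysf-202, Dysf-204 and Dysf-211, and Dysf-203 has neither. They are shown in capitals with 15 bases of the neighbouring exons on each side.
Dysf 93-nucleotide exon: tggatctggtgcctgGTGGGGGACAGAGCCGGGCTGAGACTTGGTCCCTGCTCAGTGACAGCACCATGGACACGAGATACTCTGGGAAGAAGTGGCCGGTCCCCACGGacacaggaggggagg
Dysf 42-nucleotide exon: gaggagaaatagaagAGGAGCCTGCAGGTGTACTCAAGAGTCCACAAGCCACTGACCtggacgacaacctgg

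Dysf-201, the transcript with the downstream start and the 93-nucleotide exon, nearly vanished from the later cardiomyocyte estimates. Its share of Dysf FPKM was 0.00303% at PN30 and 0.0033% at PN67, against 35.3% and 39.8% in neonatal cardiomyocytes. The drop of 37.6 percentage points was called (-37.55; adjusted p = 3.15e-05, limma on the log2 ratio of the isoform to the rest of its gene). In fibroblasts its share was 41.8% and 32.3% in the later libraries and 49.9% and 44.95% in the neonatal ones, a change of -10.4 points that was not called (adjusted p = 0.241). Dysf-204, with the upstream start and the 42-nucleotide exon, held 13.9% and 6.43% in later cardiomyocytes and under 0.001% in both neonatal cardiomyocyte libraries. Its share rose by 10.1 points in the fit of the 4 cardiomyocyte libraries alone (adjusted p = 0.00625).

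Dysf-210, 2532 nucleotides long and beginning 141279 bases into the gene, covers only the 3′ part of Dysf in the deposited tables and took up 54.0% and 54.6% of Dysf FPKM in later cardiomyocytes. It took up 29.1% and 31.8% in neonatal cardiomyocytes, and the gain of 23.8 points was called (adjusted p = 0.000806). Its GENCODE M21 version is 6525 nucleotides long, so the exons of the deposited version are not described here. In the fit of all cell libraries 3 of 9 member isoforms tested were called between later and neonatal cardiomyocytes, where 17.5% of all isoforms were. In the cardiomyocyte libraries alone it was 4 of 10, against 19.6%. Between later and neonatal fibroblasts 1 of 9 was called, against 3.67%. Between later cardiomyocytes and later fibroblasts 4 of 9 were called, against 28.0%, and between the neonatal cells 0 of 9 by limma (4 at an unadjusted p below 0.05), against 6.55%. In that last comparison Cav1-208 differed by -7.81 points (adjusted p = 0.0182), short of the 10 points a call required.

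Counted by feature over the 6 full-length transcripts, the share of the upstream first exon was higher in later cardiomyocytes. This count leaves out Dysf-210, which held 54.04% and 54.6% of Dysf FPKM in later cardiomyocytes. Dysf-205, which begins upstream, held 11.98% and 15.51% of Dysf FPKM there, against 13.55% and 9.50% in neonatal cardiomyocytes. Its change of 2.22 points was not called (adjusted p = 0.646, limma on the log2 ratio). The upstream first exon held 64.6% and 55.4% of full-length Dysf FPKM in later cardiomyocytes (PN30, PN67), against 20.9% and 15.7% in neonatal ones. Later fibroblasts had 10.8% and 20.7%, against 5.66% and 7.04% in neonatal fibroblasts. The 93-nucleotide exon held 29.95% and 39.2% in later cardiomyocytes, against 75.3% and 81.3% in neonatal ones, and 83.5% to 88.0% in the 4 fibroblast libraries. These feature shares are descriptions of the deposited estimates and have no test of their own. With Dysf-205 left out, whose deposited length differs from GENCODE, the upstream share was 49.4% and 26.7% in later cardiomyocytes and under 0.001% in neonatal ones, and the 93-nucleotide share 0.0108% and 0.0137% in later cardiomyocytes, against 68.8% and 77.8% in neonatal ones.

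**Figure D3:**
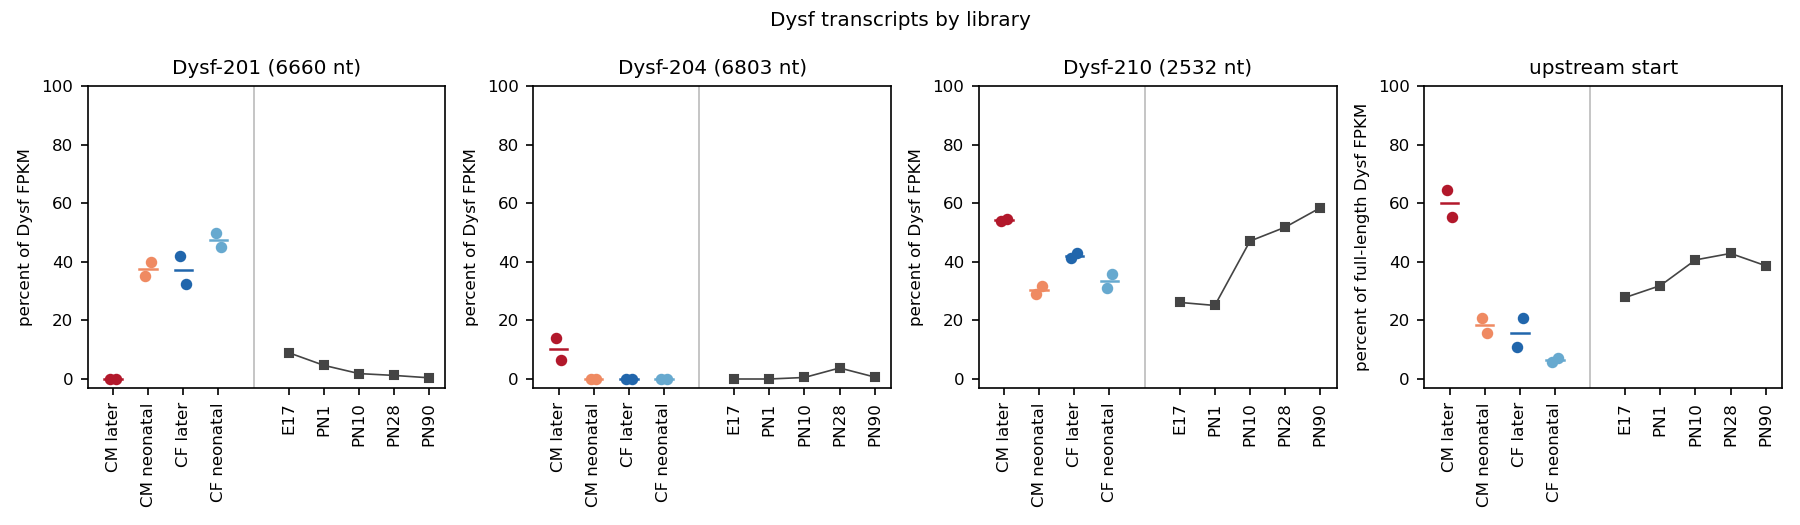
Shares of Dysf FPKM in Dysf-201, Dysf-204 and Dysf-210, and the share of full-length Dysf FPKM that begins at the upstream first exon (percent), by library: circles are cell libraries with a bar at the class mean, squares are ventricles. Dysf-201 lies at 35.3% and 39.8% in neonatal cardiomyocytes (CM) and near 0 in later ones, while it stays between 32.3% and 49.9% in fibroblasts (CF).

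Cav1, the main structural protein of caveolae outside muscle (chr6:17256335-17291452 in mm9, plus strand), was the most abundant of the 8 genes in 12 of 13 libraries, the exception being the PN30 cardiomyocytes, where Jph2 was higher. It stood at 173 and 184 FPKM in later cardiomyocytes (PN30, PN67), against 596 and 690 FPKM in neonatal ones. The classes did not overlap, the later mean was 0.278 times the neonatal one, and the log2 change was -1.84 ± 0.25 (adjusted p = 0.000409). The 13 endothelial markers moved with it: 11 were called lower in later cardiomyocytes, where 30.3% of all genes were. The median level of these markers was 49.0% of the neonatal one (5.92% to 123%). Their part in the Cav1 change was not tested. In bulk RNA, fewer cells of a type and less RNA per cell cannot be told apart.

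In fibroblasts Cav1 stood at 174 FPKM at PN28 and 95.2 FPKM at PN60, against 288 and 287 FPKM in the neonatal libraries. The log2 change was -1.15 ± 0.25 (adjusted p = 0.00869), and the 2 later ages lay further apart than the neonatal libraries: without PN60 the change was -0.70 (adjusted p = 0.00427). Endothelial markers were lower here too (8 of 13 called, against 21.4% of all genes), at a median of 56.3% of the neonatal level, and their part was not tested. The 9 macrophage and leukocyte markers summed to 991 and 781 FPKM in later fibroblasts, against 99.4 and 180 FPKM in neonatal ones. The Cav1 change did not differ between the cell types beyond its error (-0.68 ± 0.35, 95% interval -1.50 to 0.13, adjusted p = 0.129), but without the PN60 fibroblasts it did (-1.16, adjusted p = 0.000902).

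Between cell types, Cav1 was higher in neonatal cardiomyocytes than in neonatal fibroblasts by 1.15 ± 0.25 on the log2 scale (adjusted p = 0.00846). This call was lost without the PN1 cardiomyocyte library (1.04, adjusted p = 0.0626). Endothelial markers were at a median of 203.9% of the neonatal fibroblast level in neonatal cardiomyocytes, and their part was not tested. At the later stage the difference of 0.47 ± 0.25 did not pass (95% interval -0.11 to 1.05, adjusted p = 0.118). Without the PN28 fibroblasts the difference was 0.86. It passed with the most abundant transcript in place of the sum (1.22, adjusted p = 0.00142), a setting chosen after seeing the data. That transcript, Cav1-201, held 80.7% and 78.9% of Cav1 FPKM in later cardiomyocytes, against 64.3% and 64.8% in neonatal ones, a called gain of 15.3 points (adjusted p = 0.00194). Cav1-208 is a transcript of 345 nucleotides with no coding part in GENCODE M21. It held 3.93% and 4.92% in later cardiomyocytes and 31.2% and 26.5% in later fibroblasts, a called difference of -24.4 points (adjusted p = 1.46e-05). In fibroblasts Cav1-208 gained 10.5 points (adjusted p = 0.0413), a call lost in 6 of 11 other settings.

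Cav2, which forms hetero-oligomers with Cav1 (chr6:17231185-17239115, plus strand), did not follow Cav1 in cardiomyocytes. It stood at 30.5 and 34.5 FPKM in later cardiomyocytes, against 33.1 and 35.0 FPKM in neonatal ones, and the classes overlapped. The log2 difference was -0.07 ± 0.13 (95% interval -0.37 to 0.23, adjusted p = 0.666). It was called lower when FPKM were used as deposited (-0.40, adjusted p = 0.0211) and when the mitochondrial chromosome was removed and sums were made equal (-0.51, adjusted p = 0.00772). Under these scalings the median log2 change over all genes was -0.19 and -0.28, against 0.09 in the values used here.

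In fibroblasts Cav2 stood at 6.10 and 5.45 FPKM in the later class, against 12.5 and 13.9 FPKM in the neonatal class, a log2 change of -1.07 ± 0.13 (adjusted p = 0.000714). Cav2 was higher in cardiomyocytes than in fibroblasts, by 2.30 ± 0.13 at the later stage (adjusted p = 2.15e-06) and 1.30 ± 0.13 at the neonatal stage (adjusted p = 0.00023). Its cardiomyocyte level was 562% of the fibroblast level at the later stage and 258% at the neonatal stage. The 13 endothelial markers stood at 21.8% to 580% (median 155.6%) and 75.0% to 328% (median 203.9%) there, and their part was not tested.

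Cav3, the muscle caveolin (chr6:112409495-112422865, plus strand), had with Jph2 the largest log2 differences between the cell types among the 8 genes. It stood at 116 FPKM at PN30 and 71.9 FPKM at PN67, against 69.3 and 54.3 FPKM in neonatal cardiomyocytes. Although the later libraries lay above both neonatal ones, the difference of 0.57 ± 0.36 did not pass (95% interval -0.28 to 1.41, adjusted p = 0.198). Its error pools the cell libraries of both types, among them the later fibroblasts, which lay far apart in Cav3. Later fibroblasts had 0.669 FPKM at PN28 and 2.53 FPKM at PN60, against 5.95 and 5.67 FPKM in neonatal fibroblasts, a log2 change of -1.49 ± 0.36 (adjusted p = 0.014). That call was lost when either neonatal fibroblast library was left out (-1.46, adjusted p = 0.0659, and -1.52, adjusted p = 0.0678). It was -0.93 without PN28 and -2.03 without PN60, so the size of the change rests on the later library used.

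Cav3 in neonatal fibroblasts stood at 9.40% of its neonatal cardiomyocyte level, inside the range of the 9 cardiomyocyte markers there (7.42% to 10.4%). All 9 of those markers were called lower in later than in neonatal fibroblasts, where 21.4% of all genes were, with a median log2 change of -4.21. Their part in the fibroblast change of Cav3 was not tested. In later fibroblasts Cav3 stood at 1.71% of the later cardiomyocyte level, above the markers' 0.0328% to 0.134%. Cardiomyocytes exceeded fibroblasts by 5.25 ± 0.36 on the log2 scale at the later stage (adjusted p = 6.2e-06) and by 3.19 ± 0.36 at the neonatal stage (adjusted p = 0.000432). At the later stage this lay within its error of the 5.10 for Jph2, and without the PN28 fibroblasts it was 4.68, against 4.86 for Jph2. The deposited FPKM of the sole Cav3 transcript lay above its own upper confidence bound in 11 of 13 libraries, for example 105 FPKM with an upper bound of 91.9 at PN30, so those bounds are not used as errors here. Among all transcript values of at least 1 FPKM with status OK, 16.4% lay outside their own bounds.

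The 250 bases before the Cav3 start are shown because Cav3 is the muscle caveolin and was called higher in cardiomyocytes than in fibroblasts at both stages (RefSeq, GRCm38.p6, plus strand, chr6:112459255-112459504). Capitals mark E-boxes (CANNTG, the core bound by basic helix-loop-helix factors), of which the window holds 2, at 174 and 106 bases before the start (-174 and -106). On either strand, 66.2% of 32851 promoter windows of this length hold at least 1 E-box. No match to the M-CAT motif (CATTCC, in 12.6% of windows), the TATA box (TATAAA, 12.4%), the MEF2 site (2.92%) or the CArG box (1.47%) lies in this window.
Cav3 promoter: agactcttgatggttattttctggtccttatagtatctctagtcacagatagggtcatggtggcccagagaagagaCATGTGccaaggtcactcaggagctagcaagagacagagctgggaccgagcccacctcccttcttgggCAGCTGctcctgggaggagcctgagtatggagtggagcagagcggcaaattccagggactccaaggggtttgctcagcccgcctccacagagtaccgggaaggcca

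Cav3 among the caveolins and Jph2 among the junctophilins held higher shares in cardiomyocytes than in fibroblasts. Cav3 made up 36.2% and 24.8% of the summed FPKM of the 3 caveolins in later cardiomyocytes and 9.93% and 6.97% in neonatal ones. This share also depends on Cav1, which averaged 179 FPKM in later and 643 FPKM in neonatal cardiomyocytes, while the Cav3 change itself did not pass. In fibroblasts it made up 0.370% and 2.45% in the later class and 1.94% and 1.85% in the neonatal class. All 4 cardiomyocyte libraries lay above all 4 fibroblast libraries, with a mean of 19.5% against 1.65%, and the exact two-sided permutation p was 0.0286, the smallest that 4 against 4 libraries can give. Jph2 made up 92.9% of the 2 junctophilins on average in cardiomyocytes and 76.7% in fibroblasts, with ranges of 91.2% to 95.7% and 74.2% to 78.9% that did not overlap (exact permutation p = 0.0286). Both tests pooled neonatal and later libraries, and stage was not a term in them.

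**Figure D4:**
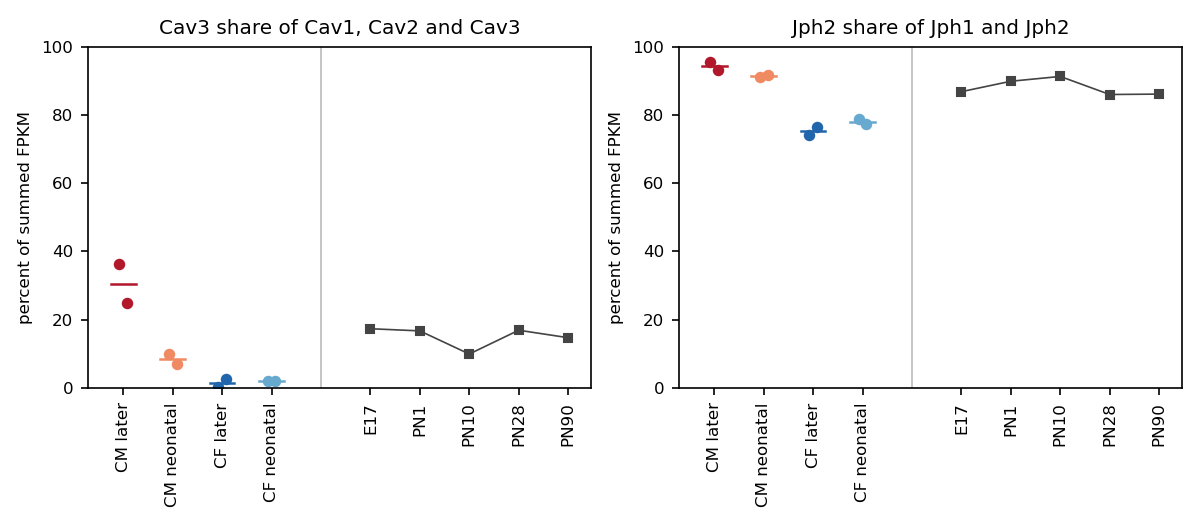
Share of Cav3 in the summed FPKM of the 3 caveolins and of Jph2 in that of the 2 junctophilins (percent), by library: circles are cells with a bar at the class mean, squares are ventricles. In both panels all cardiomyocyte libraries (CM) lie above all fibroblast libraries (CF), and the Cav3 share averages 30.5% in later and 8.45% in neonatal cardiomyocytes.

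Bin1, also called amphiphysin II (chr18:32536871-32595390 in mm9, plus strand), fell most in cardiomyocytes. It stood at 1.82 FPKM at PN30 and 1.49 FPKM at PN67, against 11.7 and 16.1 FPKM in neonatal cardiomyocytes. The later mean of 1.65 ± 0.23 FPKM was 0.119 times the neonatal mean of 13.9 ± 3.13 FPKM (SD, n = 2 each), and the log2 change was -2.48 ± 0.17 (adjusted p = 1.92e-05). In fibroblasts it stood at 11.5 and 11.6 FPKM in the later class and 15.6 and 14.3 FPKM in the neonatal class, a difference of -0.34 ± 0.17 that did not pass (adjusted p = 0.141). With FPKM as deposited and with the mitochondrial chromosome removed that fibroblast difference was called, at -0.66 in both (adjusted p = 0.0148 and 0.015).

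Bin1 was the sole gene of the 8 called lower in later cardiomyocytes than in later fibroblasts, at -2.25 ± 0.17 (adjusted p = 1.02e-05), while the neonatal difference was -0.11 ± 0.17 (adjusted p = 0.631). Its level in later cardiomyocytes was 14.3% of that in later fibroblasts, near the median of the 8 fibroblast markers there (14.6%). In neonatal cardiomyocytes it was 93.05% of the neonatal fibroblast level, where those markers stood at 6.81% to 27.1%. The part of fibroblast RNA in the later level was not tested.

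These Bin1 values come from the 2 deposited transcripts whose identifiers matched, of which Bin1-202 held 93.3% to 99.2% in all 13 libraries. A further transcript of 1989 nucleotides with the same span in the deposited tables has an identifier absent from GENCODE M21. It stood at 2.93 and 2.57 FPKM in later cardiomyocytes, against 7.07 and 8.66 FPKM in neonatal ones, and at 34.7 and 29.8 FPKM in later fibroblasts, against 22.8 and 18.9 FPKM in neonatal fibroblasts. It held 61.7% and 63.3% of the joint level in later cardiomyocytes and 37.7% and 34.9% in neonatal ones. It held 75.2% and 71.9% in later fibroblasts and 59.4% and 56.9% in neonatal ones. With it included, the joint level was 4.74 and 4.06 FPKM in later cardiomyocytes and 18.8 and 24.8 FPKM in neonatal ones, so the lower later level stayed. In fibroblasts the sign of the stage difference turned, to 0.29 (adjusted p = 0.204). The neonatal difference between cell types became -0.70 and was called (adjusted p = 0.0128). Adding this transcript was a setting chosen after seeing the data.

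**Figure D5:**
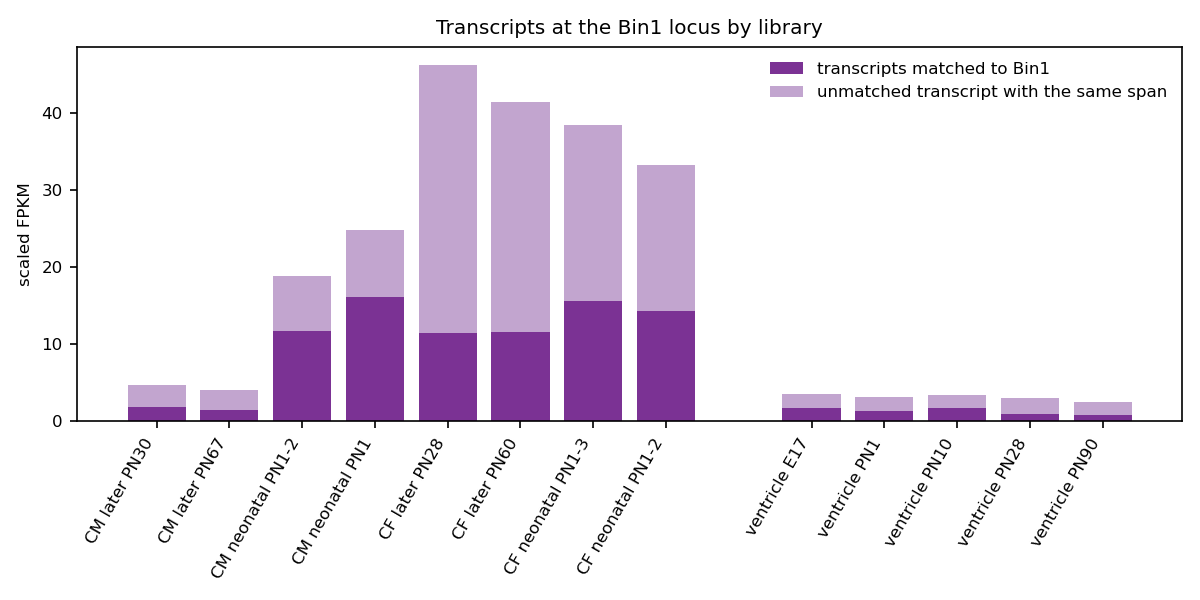
Scaled FPKM at the Bin1 locus by library, with transcripts matched to Bin1 in dark and the unmatched transcript of the same span in light purple, for cardiomyocytes (CM), cardiac fibroblasts (CF) and ventricles. The joint level is 4.74 and 4.06 FPKM in later cardiomyocytes, against 18.8 and 24.8 FPKM in neonatal ones, and ventricles lie between 2.54 and 3.58 FPKM.

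Mtm1 (chrX:68463942-68568866 in mm9, plus strand) was among the least abundant of the 8 in cells and was higher in later cardiomyocytes. It stood at 7.60 and 6.88 FPKM in later cardiomyocytes (PN30, PN67), against 2.39 and 2.19 FPKM in neonatal ones. The later mean was 3.16 times the neonatal mean, with no overlap, and the log2 change was 1.32 ± 0.13 (adjusted p = 7.32e-05). In fibroblasts it stood at 2.42 and 2.38 FPKM in the later class and 1.82 and 1.66 FPKM in the neonatal class, a difference of 0.31 ± 0.13 that did not pass (adjusted p = 0.0846). With the most abundant transcript in place of the sum, a setting chosen after seeing the data, it passed (0.38, adjusted p = 0.0445). The 2 cell types differed at the later stage, by 1.28 ± 0.13 (adjusted p = 4.22e-05), and not beyond the error at the neonatal stage (0.26 ± 0.13, 95% interval -0.03 to 0.56, adjusted p = 0.131). Mtm1-202 held 80.4% to 89.4% of Mtm1 FPKM in the 8 cell libraries. In ventricles, prepared with another library kit, Mtm1-204, of 770 nucleotides, held 46.0% to 58.2%, Mtm1-202 18.1% to 27.6% and Mtm1-203 17.2% to 22.8%, and these shares are not compared with those in cells.

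In whole ventricles the same genes were followed over 5 stages, with 1 library each, by a slope over stage order. Jph2 stood at 28.3, 32.2, 48.2, 61.0 and 64.7 FPKM at E17, PN1, PN10, PN28 and PN90, an increase at every step. Its slope was 0.32 ± 0.05 per stage on the log2 scale (adjusted p = 0.00784, limma). It was 0.22 with FPKM as deposited, and the call was lost without E17 (0.32, adjusted p = 0.0644). Jph1 stood at 4.27, 3.604, 4.56, 9.88 and 10.4 FPKM at the same stages, with its increase after PN10 and a slope of 0.35 ± 0.09 (adjusted p = 0.0262), a call lost without PN1, PN28 or PN90, without the filter on low values and with FPKM as deposited.

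Dysf stood at 10.96, 15.2, 33.8, 35.7 and 30.8 FPKM over the 5 ventricle stages, and Mtm1 at 4.45, 12.2, 18.1, 22.1 and 20.1 FPKM. Both were highest at PN28, with slopes of 0.40 ± 0.10 (adjusted p = 0.0307) and 0.47 ± 0.11 (adjusted p = 0.0247). Without E17 neither passed, at 0.29 for Dysf (adjusted p = 0.23) and 0.22 for Mtm1 (adjusted p = 0.161), and without PN90 the Dysf slope was 0.60. Both calls were also lost without PN28, without the filter on low values and with the mitochondrial chromosome removed, and that of Dysf without PN1. With the most abundant transcript, the partial Dysf-210, the Dysf slope was 0.65. The 6 full-length Dysf transcripts summed to 7.20, 9.59, 16.1, 13.3 and 10.7 FPKM over the 5 stages, highest at PN10. Cav2 stood at 15.8, 26.3, 45.5, 42.4 and 40.7 FPKM, highest at PN10, with a slope of 0.33 ± 0.10 (adjusted p = 0.0424). Without E17 it was 0.16 (adjusted p = 0.349), and the Cav2 call was also lost without PN1 or PN28, without the filter on low values, with FPKM as deposited, with the mitochondrial chromosome removed and with transcripts of all lengths.

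Cav1 in ventricles stood at 251, 353, 432, 273 and 241 FPKM, highest at PN10, and its slope of -0.05 ± 0.10 did not pass (adjusted p = 0.734). The 13 endothelial markers summed to 254, 335, 498, 393 and 352 FPKM over the same stages and were also highest at PN10. Cav3 stood at 56.0, 76.0, 52.5, 64.0 and 48.5 FPKM, with no slope beyond its error (-0.07 ± 0.07, adjusted p = 0.51). Bin1 stood at 1.76, 1.40, 1.71, 0.932 and 0.843 FPKM, lowest at the last 2 stages, and its slope of -0.15 ± 0.06 did not pass (adjusted p = 0.0912), while it passed with FPKM as deposited (-0.21, adjusted p = 0.0278).

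In all, 5 of 8 genes were called increasing in ventricles, where 19.0% of all genes were, and 0 decreasing, where 16.2% were (1, Bin1, at an unadjusted p below 0.05). The count was 1 without the filter on low values, 2 with the mitochondrial chromosome removed, and 1, 2, 5, 1 and 4 when E17, PN1, PN10, PN28 or PN90 was left out in turn. Over all genes the count of calls in either direction was 4092, against 3084 without the filter, 4155 with the mitochondrial chromosome removed, and 1142, 2315, 4644, 2277 and 2815 with those stages left out. The summed cardiomyocyte markers increased over the stages as well, at 15040, 19320, 23660, 35660 and 38310 FPKM, and their part was not tested. Of 14 member isoforms tested in ventricles limma called 0, where 1.08% of all isoforms were called (3 at an unadjusted p below 0.05). Dysf-210 had the widest shift, with 26.1%, 25.1%, 47.1%, 51.8% and 58.4% of Dysf FPKM from E17 to PN90 (29.5 points between the mean of the last 2 and the first 2 stages, adjusted p of the slope = 0.0614). Dysf-201 held 8.98%, 4.67%, 1.85%, 1.22% and 0.406% over the same stages, and the upstream start held 27.8%, 31.9%, 40.7%, 42.9% and 38.7% of full-length Dysf FPKM. With Dysf-205 left out, whose deposited length differs from GENCODE, the upstream share was 0.000121%, 4.33e-05%, 1.82%, 15.04% and 3.03%. Dysf-204 held 0.523%, 3.76% and 0.663% of Dysf FPKM at PN10, PN28 and PN90.

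Genes that work beside the 8 were read from 5 lists. Of 12 tested partners of the T-tubule and dyad, 11 were called higher in later than in neonatal cardiomyocytes, where 36.9% of all genes were, with a median log2 change of 2.09, against 0.09 over all genes. The 9 cardiomyocyte markers had a similar median of 2.13 in the same comparison, and all 9 were called higher. Tcap, a titin cap protein, changed by 3.68 ± 0.30 (adjusted p = 3.72e-05) and Asph, whose locus also encodes the dyad protein junctin, by 2.59 ± 0.24 (adjusted p = 7.11e-05). The exception was the sodium-calcium exchanger gene Slc8a1, at 0.56 ± 0.25 (adjusted p = 0.0838). In fibroblasts 6 of the 12 were called lower, where 21.4% of all genes were, alongside the cardiomyocyte markers given above. Of 10 caveolar coat genes 4 were called higher and 4 lower in later cardiomyocytes (median -0.38), near the 36.9% higher and 30.3% lower of all genes. Pacsin3, a membrane-curving protein, changed by 2.64 ± 0.24 and Cavin4, the muscle cavin, by 2.23 ± 0.17, while Ehd1 and Ehd2, ATPases of the EHD family, changed by -1.38 ± 0.14 and -1.17 ± 0.14.

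Of 10 membrane-repair genes 2 were called higher and 6 lower (median -0.77), against the same 36.9% and 30.3%. Trim72, which encodes the repair protein MG53, changed by 5.14 ± 0.13 and the protease gene Capn3 by 0.45 ± 0.13, while S100a10 and Anxa2, which encode binding partners, changed by -2.46 ± 0.13 and -2.43 ± 0.12. Of 16 genes of the myotubularin family and its phosphoinositide partners 5 were called higher and 5 lower (median 0.20), near those shares of all genes, with Mtmr1 at 0.98 ± 0.20, Pik3r4 at 0.84 ± 0.12, Mtmr2 at -1.21 ± 0.14 and Mtmr12 at -1.18 ± 0.17. Of 8 amphiphysin, dynamin and endophilin genes 2 were called higher and 2 lower (median 0.18), which is below the 36.9% and 30.3% of all genes. In that list the dynamins Dnm1 and Dnm3 changed by 0.57 ± 0.22 and 0.45 ± 0.16, and the endophilins Sh3gl3 and Sh3gl1 by -2.31 ± 0.15 and -1.32 ± 0.14.

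For each of the 8 genes, the 3 tested genes with the most similar log2 profile over the 8 cell libraries were found by Pearson's r. These libraries share cell type and stage, so the values describe profile shape only. For Jph2 they were Fam217b, the pseudogene Mrps36-ps1, whose reads may be shared with its parent gene, and Ndufaf7 (r = 0.999, 0.999 and 0.999), for Jph1 Trim54, Rhobtb1 and Rpap2 (0.995, 0.994 and 0.994), and for Dysf Ppif, Cox7c and Lmod3 (0.998, 0.998 and 0.998). For Cav1 they were Myct1, Cenpj and Hhex (0.987, 0.984 and 0.977), for Cav2 Zfp292, Dusp3 and Impa2 (0.995, 0.994 and 0.992), and for Cav3 Rbpms2, Sp3os and Ppm1j (0.997, 0.997 and 0.996). For Bin1 they were Pan3, Cnot6 and Ripk3 (0.996, 0.996 and 0.996), and for Mtm1 Zfp971, Diablo and Hif1an (0.998, 0.998 and 0.997).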

How the data were processed

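The deposited values are transcript FPKM by Cufflinks 2.1.1 after TopHat2 2.0.5 on mm9, per the submitters' processing notes. The annotation release was not given in the sources used here. The same deposited tables list each transcript's read coverage, used for depth only: median coverage per FPKM was 19.5 to 32.8, and counts are unknown. The members and lists were chosen with earlier results of these data known.

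Of 94696 transcripts, 82379 (87.0%) matched GENCODE M21 (GRCm38), used for names and exons only. Of the 42 member transcripts, 34 had the same length there, with 0 among those of Bin1, Cav3 and Jph1. Positions given in mm9 are the deposited ones, counted from 1. FPKM of transcripts of at least 200 nucleotides were summed per gene, leaving out those with the status LOWDATA. Genes with HIDATA or FAIL transcripts were left out (90 in cells, 64 in ventricles, no member). Libraries were scaled by the median of ratios, separately in cells and ventricles. Genes that averaged 1 FPKM or more were tested on log2(FPKM + 1), which understates changes of low genes, with limma 3.58.1 in R 4.3.3 (moderated, intensity trend, two-sided, Benjamini-Hochberg over all genes, threshold 0.05). Isoforms were tested as log2 ratios with 0.5 added, in genes averaging at least 5 FPKM, and called at a share change of at least 10 points. Paralogue shares were compared by exact permutation (scipy 1.17.1). The scripts were tested on simulated data. Named genes are the 8 members, isoforms with at least 10% of a gene, the 2 called genes per list and direction with the greatest change, and the 3 most similar genes. Other pseudocounts, filters, scalings, transcript sets and left-out libraries were tried. In the gene tests, using the most abundant transcript and adding the unmatched transcripts of a locus were settings chosen after seeing the data.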

Additional observations from a re-analysis of the deposited data

Results flagged for a closer look

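For 7 of the 8 genes the change from the neonatal to the later class differed between cardiomyocytes and fibroblasts by a test of the difference itself (limma interaction, adjusted p below 0.05). The change in cardiomyocytes minus the change in fibroblasts was 2.99 ± 0.28 on the log2 scale for Jph2 (adjusted p = 0.00013), 2.05 ± 0.51 for Cav3 (adjusted p = 0.0105), 1.85 ± 0.21 for Dysf (adjusted p = 0.000307) and 1.77 ± 0.27 for Jph1 (adjusted p = 0.00119). It was 1.01 ± 0.18 for Mtm1 (adjusted p = 0.00213) and 1.00 ± 0.18 for Cav2 (adjusted p = 0.00259). For Bin1 it was -2.13 ± 0.24 (adjusted p = 0.000277), the sole negative value of the 7. In Cav2 the fibroblast change passed and the cardiomyocyte change did not, and in Cav3 likewise, while for Bin1, Jph1, Jph2 and Mtm1 the cardiomyocyte change passed and the fibroblast change did not pass the adjusted threshold. The 95% intervals of the fibroblast changes of Jph2 (-0.947 to -0.012) and Mtm1 (0.017 to 0.601) excluded 0. Dysf passed in both cell types with opposite signs. All 9 cardiomyocyte markers were called more positive in this test as well (median 6.40), where 32.3% of all genes were. In fibroblasts alone they had a median change of -4.21. The part of cardiomyocyte RNA in the fibroblast libraries in these differences was not tested.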

How the results depend on the processing

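Over 800 alternative values of the 8 genes, 754 kept direction and side of the threshold, 28 fell below it, 13 passed it and 5 changed sign. The sign changes were the fibroblast change of Bin1 with the unmatched transcript added (0.286), the neonatal cell type difference of Bin1 without neonatal cardiomyocyte replicate 1, PN1-2 (0.096), the cardiomyocyte change of Cav2 without later replicate 2, PN30 (0.042), and the ventricle slopes of Cav1 (0.069) and Cav3 (0.009) without PN90. Over all left-out libraries these 4 ranged from -0.331 to 0.096, -0.123 to 0.042, -0.239 to 0.069 and -0.172 to 0.009. None of these passed in either setting, and the cause was not tested. The count of called genes was 6 in all leave-one-out fits for the cardiomyocyte change, 2 to 5 for the fibroblast change (2 without neonatal replicate 2, PN1-2, where calls over all genes were 2727 against 4973) and 7 to 8 for the difference of changes. Leaving out 1 cell library leaves 1 in its class, and calls over all genes moved in such fits as well. These counts are therefore not read as a result about the 8 genes. For ventricles the count of called genes was 1 to 5, 1 with no filter on low values and 2 with the mitochondrial chromosome removed. Of 114 alternative isoform values, 105 kept direction and side of the threshold and 9 fell below it. Leaving out 1 library gave Cav3 share differences of 12.24 to 21.99 and Jph2 share differences of 15.34 to 16.98 points, all with an exact permutation p = 0.0571, the smallest that 3 against 4 can give. No paired analysis was possible because replicate numbers in the cell classes were given in accession order and nothing in the labels ties libraries of different classes to shared animals or batches. With 2 libraries per class and 1 per ventricle stage, small differences are not detectable, and isoform values rest on the authors' assignment of reads to overlapping transcripts.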
